A study of Mus musculus with 6 samples.

Results

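The small proline-rich protein genes (Sprr) were followed in N18-Fms cells with and without added CSF-1. The probes were taken by gene name from the annotation in the array files, which gave 1 probe for each of 10 genes, Sprr1a, Sprr1b, Sprr2b, Sprr2d, Sprr2e, Sprr2f, Sprr2g, Sprr2h, Sprr2i and Sprr3, among 36028 genes with a usable probe. N18-Fms cells are a luciferase-transfected subclone of C2H, a line from a prostate tumor of the TRAMP mouse, that was transduced with murine c-fms, the gene of the CSF-1 receptor, and sorted by flow cytometry for the receptor. Every group therefore carried the receptor and came from 1 subclone, and every group was grown with serum and dihydrotestosterone. The Control group was left unstimulated (its labels give both untreated and vehicle), so it had no added CSF-1. The study found that N18 cells secrete CSF-1, and it proposes autocrine activation of the receptor in the transduced cells. The 24H CSF1 group was exposed for 24 h to 100 ng/mL of recombinant murine CSF-1, and the 48H CSF1 group had 48 h of the same dose. Each group had 2 single-color arrays, with RNA from 2 independent experiments.

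Small proline-rich proteins are precursors of the cornified envelope, the protein shell that forms beneath the membrane of stratified squamous epithelial cells. Transglutaminases cross-link them to one another and to loricrin and involucrin. Their genes lie together in the epidermal differentiation complex, and members are known to be induced in injured or stressed epithelia, in squamous metaplasia and, for Sprr1a, in regenerating neurons.

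The stretches upstream of the annotated starts were examined because 5 members rose while others of the same subfamily were not detected. RefSeq (GRCm38.p6) gave a window for 9 of the 10 members, all but Sprr2g, which RefSeq lists as a transcribed pseudogene. In the 250 bases before the start, 3 motifs were searched on both strands, the AP-1 site TGANTCA, the octamer ATGCAAAT bound by POU factors and the TATA box TATAAA. The last 200 of these bases are shown, with the matches in capitals, for the risers Sprr2d, Sprr2e and Sprr2h, for Sprr2i, which was not detected, for Sprr2k, a relative outside the 10 that fell at 24 h, and for Sprr1a, which has a different layout.
Sprr2d (chr3:92338940-92339139, plus strand): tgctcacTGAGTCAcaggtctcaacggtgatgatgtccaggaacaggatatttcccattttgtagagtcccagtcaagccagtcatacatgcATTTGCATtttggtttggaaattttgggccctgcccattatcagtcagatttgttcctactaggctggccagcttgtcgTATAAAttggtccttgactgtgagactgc
Sprr2e (chr3:92351943-92352142, plus strand): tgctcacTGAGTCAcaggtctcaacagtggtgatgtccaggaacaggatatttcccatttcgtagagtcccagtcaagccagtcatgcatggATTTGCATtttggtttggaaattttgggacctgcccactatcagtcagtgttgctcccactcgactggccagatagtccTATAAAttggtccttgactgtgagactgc
Sprr2h (chr3:92385485-92385684, plus strand): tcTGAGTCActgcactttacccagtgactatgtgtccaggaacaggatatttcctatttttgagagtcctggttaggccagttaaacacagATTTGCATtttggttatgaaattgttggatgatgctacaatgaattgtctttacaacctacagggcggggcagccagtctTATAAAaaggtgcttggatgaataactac
Sprr2i (chr3:92407791-92407990, plus strand): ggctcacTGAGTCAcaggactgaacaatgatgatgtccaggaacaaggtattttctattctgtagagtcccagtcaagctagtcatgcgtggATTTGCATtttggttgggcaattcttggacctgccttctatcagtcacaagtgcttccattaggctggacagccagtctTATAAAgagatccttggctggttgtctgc
Sprr2k (chr3:92432382-92432581, plus strand): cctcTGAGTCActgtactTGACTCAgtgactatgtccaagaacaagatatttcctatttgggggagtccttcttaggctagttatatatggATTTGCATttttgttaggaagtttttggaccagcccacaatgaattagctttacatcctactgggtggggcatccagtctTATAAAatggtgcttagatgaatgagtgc
Sprr1a (chr3:92485882-92486081, minus strand): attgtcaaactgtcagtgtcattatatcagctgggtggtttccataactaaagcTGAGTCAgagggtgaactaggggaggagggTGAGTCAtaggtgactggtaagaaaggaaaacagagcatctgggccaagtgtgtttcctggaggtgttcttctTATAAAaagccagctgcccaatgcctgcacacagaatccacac

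The AP-1, octamer and TATA letters stood in the same order in 7 Sprr2 windows, those of Sprr2b, Sprr2d, Sprr2e, Sprr2f, Sprr2h, Sprr2i and Sprr2k. The first base of the TATA match lay 29 bases before the start in each of the 7. The AP-1 letters occurred in 6.75% of 32851 RefSeq windows, the octamer in 1.6% and the TATA letters in 12.4%, and 14 windows (0.0426%) held all 3, these 7 among them. Sprr1a held 2 AP-1 matches, 146 and 116 bases before the start, and Sprr1b held 1, and neither held the octamer. Sprr3 held only the TATA letters. The interferon-stimulated response element, searched as GAAA, any 2 bases and GAAA again (2.98% of windows), and the STAT letters TTCNNNGAA (7.02%) were not in the windows of the 9 members. These matches are letters in a window and not measured binding. Over the 250 bases, the 21 pairs of the 7 Sprr2 windows were 56.1% to 88.0% identical, with Sprr2d and Sprr2e the closest pair. The layout was thus shared by genes that rose, a gene that fell and genes that were not detected.

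**Figure D1:**
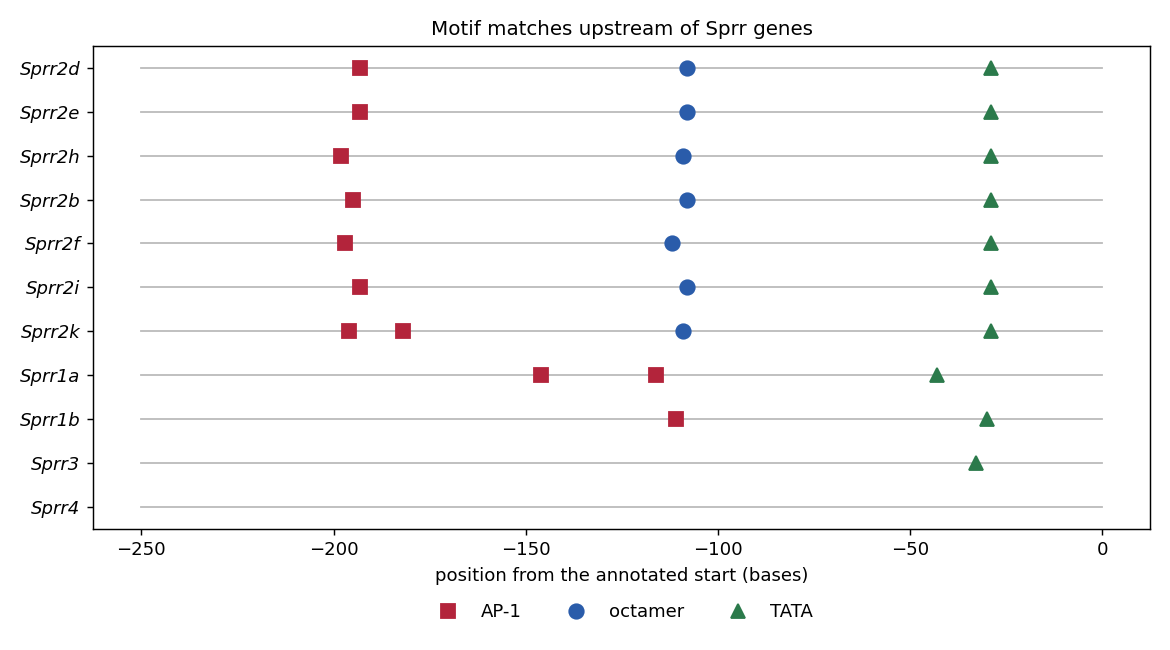
Positions of the AP-1, octamer and TATA letters in the 250 bases before the annotated start of 11 Sprr genes (x axis, bases from the start; 1 line a gene, each mark the first base of a match). The 7 Sprr2 genes hold all 3 in the same order, whether the gene rose, fell or was not detected.

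The 60-base probes were checked for shared sequence, since related genes can hybridize to one another's probes. Over the 136 pairs of the 17 probes with an Sprr name, the longest shared run was 18 bases, and 11 pairs shared 12 or more. Stretches of 30 bases are shown for a pair with 1 riser and 1 undetected gene, for the closest pair of risers, and for Sprr2g with Sprr2i, with the shared run in capitals.
Sprr2h: ACATTTTTCAAATCTttctgacattttgcc
Sprr2f: cagtatgACATTTTTCAAATCTctctgtca
Sprr2d: tgtgttgtcagcatgGTTTCATTTCCTGAa
Sprr2e: ttgtgttgtcattgttGTTTCATTTCCTGA
Sprr2g: ttccatttgCTGAATAAAGTAtaatctttt
Sprr2i: tttcatttcCTGAATAAAGTAccgtcttgt
The shared runs were 15, 14 and 12 bases long. This count compares probe with probe, and the probes were not matched to the transcripts of the other genes. It therefore cannot show whether a probe binds RNA of another Sprr gene, and cross-hybridization was not tested.

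Levels are given as the log2 of the background-subtracted signal minus the log2 of the array's 75th percentile, so that 0 is the brightness of that percentile. They compare arrays for 1 probe and not 1 gene with another. A probe was well above background where the scanner software flagged it so, and a group in which no array passed gives only a bound. Of 59305 spots on each array 58.7% to 72.0% were well above background and 0 were saturated. The array 24H CSF1 replicate 1 was alone on its slide and scan, so the values of the tested Sprr genes are also given without it. Since the 10 genes were chosen with their changes on these arrays known, their values and the calls given for them are a description and no test. In bulk RNA, fewer cells of a type and less RNA per cell cannot be told apart, and the same holds for more.

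At 48 h, 5 members were called higher than in Control, Sprr2d, Sprr2e, Sprr2g, Sprr2h and Sprr1a, Sprr3 was tested and not called, and 4 were too dim to test. At 24 h, Sprr2h and Sprr2d were called, and with the slide as a block or without 24H CSF1 replicate 1 Sprr2e was called as well. Against the 24 h arrays Sprr2d, Sprr2e and Sprr2g were called at 48 h. A call is an unadjusted limma p under 0.05 with at least a 2-fold change, and among all 24648 genes tested it was met by 5.86% as higher and 1.83% as lower at 24 h, by 4.66% and 1.83% at 48 h, and by 0.868% and 1.4% between the times (7.68%, 6.48% and 2.27% in either direction). The balance turned with the scaling. At 24 h 1444 genes were higher and 450 lower, but 924 and 1019 with median centring and 935 and 617 with quantile normalization, and at 48 h 1148 and 450, but 1024 and 648 with median centring. Between the times 214 were higher and 346 lower, but 332 and 136 with quantile normalization, 383 and 190 with median centring and 136 and 26 with normexp. With limma's p adjusted over all genes, 2, 5 and 0 members were called higher, against 4.55%, 3.95% and 0% of all genes, and 0 members were lower in any of the 3 comparisons, adjusted or not. These adjusted counts rest on single arrays: with 1 array left out they ran from 0 to 2 at 24 h, from 1 to 5 at 48 h and from 0 to 1 between the times. At 24 h 0 members passed without 24H CSF1 replicate 2 and 1 without Control replicate 1, Control replicate 2 or 48H CSF1 replicate 1. At 48 h 1 passed without 48H CSF1 replicate 1, 2 without Control replicate 1 or 48H CSF1 replicate 2, 3 without Control replicate 2 and 4 without 24H CSF1 replicate 2. Without a filter on dim probes 1 and 4 passed at the 2 times, Sprr2d at 24 h and Sprr2d, Sprr2e, Sprr2h and Sprr2i at 48 h. Of these Sprr2i was not well above background on any array, and Sprr1a and Sprr2g did not pass in that setting. Between the times 3 passed with normexp background correction and 1 without 48H CSF1 replicate 2. These counts follow from how the members were chosen and nothing is read from them. Only 6 members passed the filter on dim probes: 3 were well above background on all 6 arrays, 3 on some and 4 on none. Of the 3 on some, Sprr2d passed through the CSF-1 groups only, Sprr2g through 48 h only and Sprr3 through Control only. The log2 differences from Control at 48 h were read under 10 alternatives each, of scaling, background, blocks and omitted arrays. That of Sprr2h ran from 5.41 to 6.68, that of Sprr2e from 3.09 to 3.77 and that of Sprr2d from 3.01 to 7.20. That of Sprr2g ran from 1.56 to 3.62 and that of Sprr1a from 0.83 to 1.17, with 0 changes of sign. The slide and replicate blocks left these 48 h differences as they were, so they are no check on them.

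**Figure D2:**
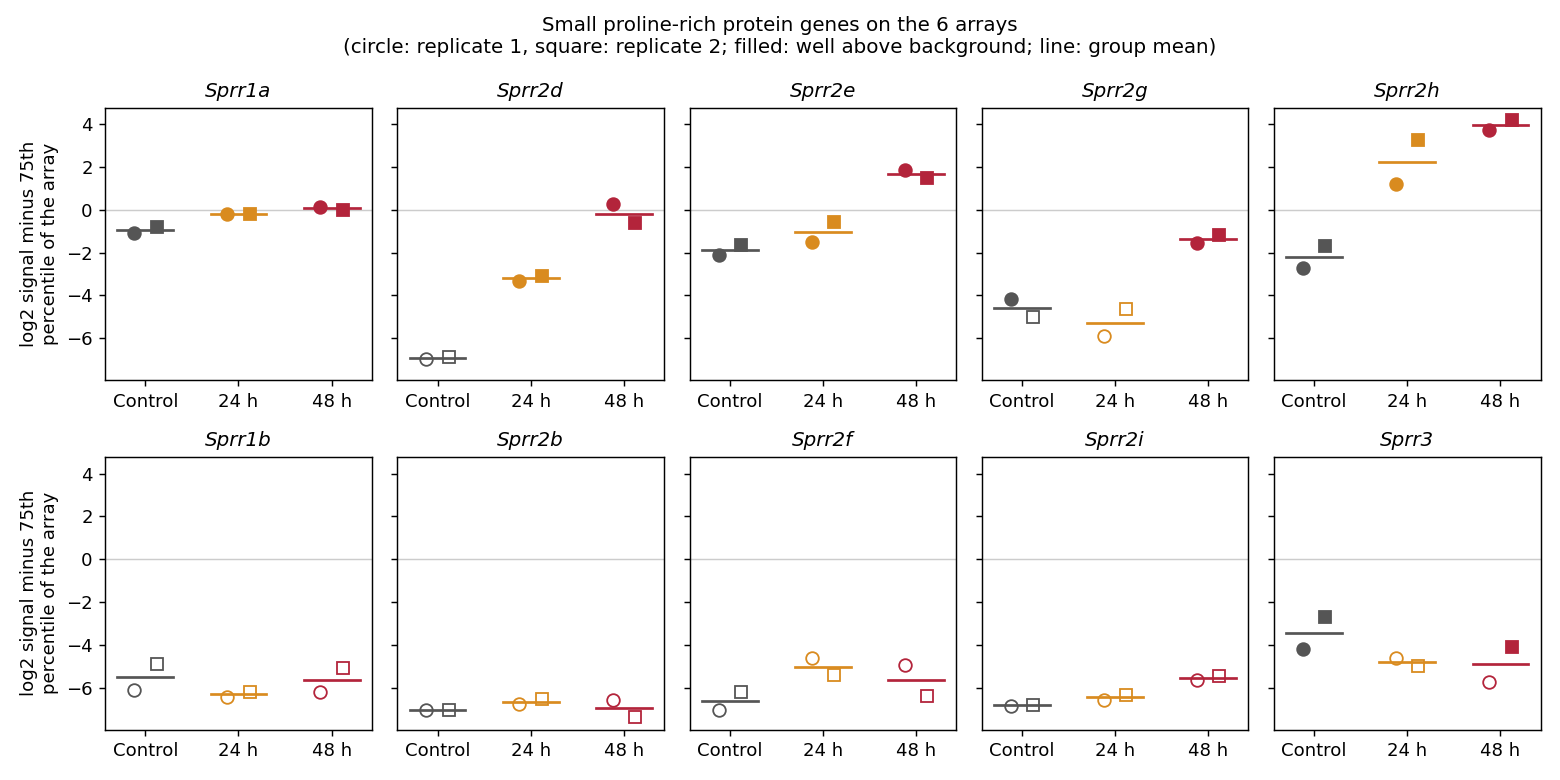
Level of each of the 10 Sprr genes on the 6 arrays (y axis, log2 signal minus the array's 75th percentile; circles replicate 1, squares replicate 2, filled where well above background, lines group means). Sprr2d, Sprr2e, Sprr2g and Sprr2h are highest at 48 h, and the lower row holds genes that were dim on every array and Sprr3.

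Among members bright on every array, Sprr2h had the largest rise at 48 h. Its log2 level was -2.72 and -1.69 in Control, 1.19 and 3.27 at 24 h, and 3.72 and 4.20 at 48 h. It was well above background on all 6 arrays. The groups did not overlap, and the 24 h replicates lay far apart. The mean was -2.20 ± 0.73 in Control, 2.23 ± 1.47 at 24 h and 3.96 ± 0.34 at 48 h (SD, n = 2). This was 21.6-fold above Control at 24 h and 71.6-fold at 48 h, and 3.32-fold higher at 48 h than at 24 h. The 24 h replicates differed by 2.08 on the log2 scale, and 44 of the 24648 genes (0.179%) differed more. Without 24H CSF1 replicate 1, Sprr2h was 44.3-fold above Control at 24 h and only 1.61-fold higher at 48 h than at 24 h, whereas against replicate 1 alone the later rise was 6.83-fold. How much of its rise came after 24 h thus depended on 1 array.

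Most of the rise of Sprr2e came after 24 h. Its log2 level was -2.10 and -1.65 in Control, -1.5 and -0.58 at 24 h, and 1.87 and 1.48 at 48 h, well above background throughout. The 24 h arrays lay just above the Control arrays and the 48 h arrays far above both. The mean was -1.87 ± 0.32 in Control, -1.04 ± 0.65 at 24 h and 1.67 ± 0.28 at 48 h (SD, n = 2). This was 1.78-fold above Control at 24 h, 11.7-fold at 48 h, and 6.56-fold higher at 48 h than at 24 h. Without 24H CSF1 replicate 1 it was 2.45-fold above Control at 24 h, past the 2-fold threshold, and 4.77-fold higher at 48 h than at 24 h, and without replicate 2 these values were 1.30-fold and 9.02-fold.

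Sprr2d, whose upstream window is the most like that of Sprr2e, went from dim to bright in steps. Its log2 level was -6.97 and -6.87 in Control, where it was not well above background, -3.34 and -3.08 at 24 h, and 0.28 and -0.62 at 48 h. The 3 groups did not overlap. The mean was -3.21 ± 0.18 at 24 h and -0.17 ± 0.64 at 48 h (SD, n = 2). It was at least 2.87-fold above Control at 24 h and at least 23.5-fold at 48 h, bounds set from the lowest signal well above background on each Control array, and 8.19-fold higher at 48 h than at 24 h. Without 24H CSF1 replicate 1 the measured log2 difference from Control at 24 h was 3.84 in place of 3.72, and the later rise was 7.50-fold. With normexp background correction, which compresses dim signals, its log2 difference from Control was 0.98 at 24 h and 3.01 at 48 h, in place of 3.72 and 6.75.

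Sprr2g was higher at 48 h than in Control or at 24 h. Its log2 level was -4.18 and -4.98 in Control, -5.91 and -4.65 at 24 h, and -1.57 and -1.17 at 48 h. Control replicate 1 and both 48 h arrays were well above background and neither 24 h array was. Control and 24 h overlapped, and both 48 h arrays lay above the rest, at a mean of -1.37 ± 0.28 (SD, n = 2). It was 9.26-fold above Control at 48 h and at least 8.01-fold above the 24 h arrays, and no fold was set between 24 h and Control, where the measured log2 difference was -0.70, or -0.07 without 24H CSF1 replicate 1. Without 24H CSF1 replicate 2 that difference was -1.33. With normexp the log2 difference at 48 h was 1.56 in place of 3.21, and that between 48 h and 24 h was 1.56 in place of 3.91.

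Sprr1a, the member known from regenerating neurons and stressed heart, was higher by a small amount, most of it present at 24 h. Its log2 level was -1.10 and -0.79 in Control, -0.21 and -0.19 at 24 h, and 0.14 and -0.01 at 48 h, well above background throughout. Its 3 groups did not overlap. The mean was -0.95 ± 0.22 in Control, -0.20 ± 0.02 at 24 h and 0.07 ± 0.11 at 48 h (SD, n = 2). This was 1.68-fold above Control at 24 h, 2.02-fold at 48 h and 1.20-fold higher at 48 h than at 24 h. The 24 h value was 1.70-fold without 24H CSF1 replicate 1. The 48 h value sat at the 2-fold threshold. On the log2 scale the difference was 0.98 with quantile normalization, 0.91 with median centring and 0.83 with normexp. It was 0.86 without Control replicate 1 and 0.94 without 48H CSF1 replicate 1.

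Sprr3, a member typical of esophageal and oral epithelium, was the 1 tested member whose mean was below Control at both times. Its log2 level was -4.20 and -2.72 in Control, -4.61 and -4.97 at 24 h, and -5.72 and -4.10 at 48 h. Both Control arrays and 48H CSF1 replicate 2 were well above background. It was at least 1.88-fold lower at 24 h, where the arrays lay below both Control arrays, while the 48 h and Control ranges overlapped at a mean difference of -1.45. The log2 difference at 24 h was -1.88 with quantile normalization, -1.61 with median centring and -0.45 with normexp. With quantile normalization and with median centring Sprr3 was called lower at 24 h before adjustment and not after it. Its measured log2 difference at 24 h, -1.33, was -2.07 without Control replicate 1, -0.59 without Control replicate 2 and -1.51 without 24H CSF1 replicate 1, and that at 48 h ran from -2.26 without 48H CSF1 replicate 2 to -0.64 without 48H CSF1 replicate 1.

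Sprr1b, Sprr2b, Sprr2f and Sprr2i were not well above background on any array. Their log2 levels ran from -7.38 to -4.63, and no fold was set. The highest of them was Sprr2f at 24 h, -4.63 and -5.42 against -7.06 and -6.21 in Control. Sprr2i ran from -6.86 to -5.46 and both 48 h arrays were above the other 4, still below the flag. These probes could not show whether the genes were silent or only below the range of the array.

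Other probes with an Sprr name covered 5 further genes. Sprr2k had a log2 level of -2.0 and -2.12 in Control, -4.38 and -5.28 at 24 h, and -3.20 and -4.26 at 48 h. It fell at 24 h, to at least 4.79-fold lower (limma adjusted p = 0.0184), and its 48 h value was 3.18-fold lower with adjusted p = 0.0634. The 24 h call was lost without Control replicate 1 (adjusted p = 0.0953), without Control replicate 2 (0.109) and without 24H CSF1 replicate 2 (0.0952). Its upstream window has the layout of the risers with an additional AP-1 match. Sprr4 was at least 2.30-fold higher at 24 h (limma adjusted p = 0.019) and at least 1.44-fold at 48 h (adjusted p = 0.119). Its 24 h call was kept in only 1 of the 6 fits that each left out 1 array. The 3 probes named Sprr2a2 disagreed: 1 was very bright on all 6 arrays, with log2 levels of 8.16 to 8.39 and adjusted p = 0.4 at 24 h and 0.366 at 48 h, 1 was well above background on the 2 Control arrays only, and 1 on 0 arrays. Sprr2a1 was not well above background on any array and the pseudogene Sprr2j-ps on 2.

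The Sprr probes span 276.9 kb of chromosome 3 (mm9, chr3:92027346-92304254), with Sprr2d (chr3:92144721-92144780), Sprr2e (chr3:92157288-92157347), Sprr2g (chr3:92179092-92179151) and Sprr2h (chr3:92191160-92191219) in succession and Sprr2f between Sprr2e and Sprr2g. Sprr2f was thus dim among 4 risers. Within 1 Mb of the cluster on either side, 40 of 61 other genes were tested, and 2 of them were called higher at each time, Lce1g and Lce1i, with 0 lower. Of all genes tested, 5.86% and 4.66% were called higher at 24 h and 48 h. Of nearby genes, Lelp1, at 88.0 kb before the cluster, differed from Control by 0.01 and 0.01 on the log2 scale at 24 h and 48 h (limma adjusted p = 0.98 and 0.977), 2310046K23Rik, at 32.3 kb after it, by 0.60 and 0.41 (0.203 and 0.365), involucrin (Ivl) by -0.41 and 0.37 (0.748 and 0.777) and loricrin (Lor) by 0.02 and -0.42 (0.963 and 0.168). Involucrin and loricrin, the partners of small proline-rich proteins in the envelope, thus did not pass the test at either time.

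**Figure D3:**
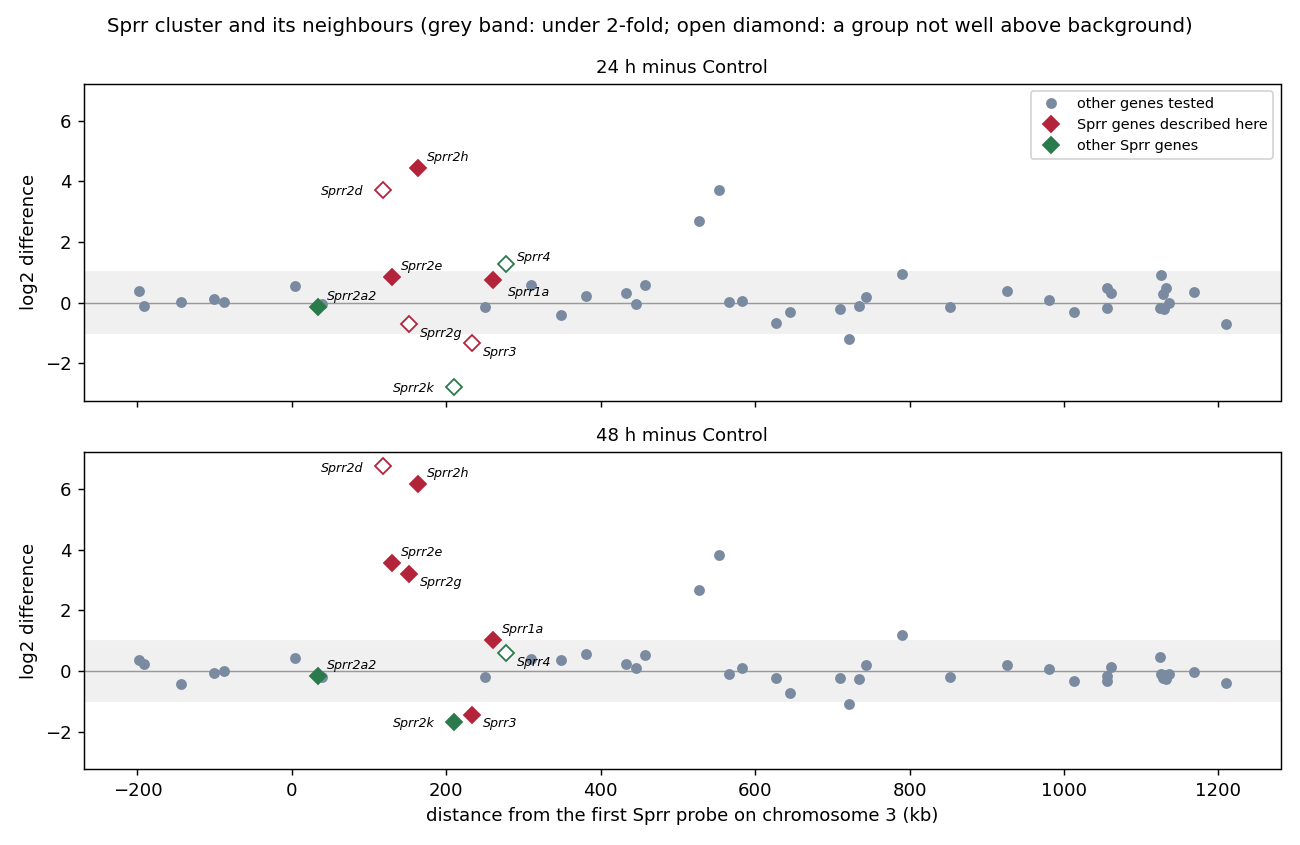
Log2 difference from Control along the Sprr cluster and 1 Mb to each side (x axis, kb from the first Sprr probe; upper panel 24 h, lower panel 48 h; open diamonds have a group that was not well above background, so the difference is no measured fold). At 48 h Sprr2d and Sprr2h stand above every plotted neighbour, and Sprr2e and Sprr2g above every one but Lce1i, which with Lce1g makes the pair of high grey points to the right of the cluster.

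Genes of cornification, of epithelial transcription control and of injury were counted in 5 lists. The lists were written from general knowledge, with earlier results of these data known, so the shares called are a description. Of the cornified envelope precursors other than Sprr, 19 of 41 were tested, with 2 called higher and 2 lower at 24 h, and 2 higher and 1 lower at 48 h. The share called was 21.1% and 15.8%, against 7.68% and 6.48% of all genes, and the median log2 difference was 0.01 and 0.09, against 0.04 and -0.04. Lce1i, a late envelope gene of the same complex, had log2 fold changes of 3.71 and 3.83 (limma adjusted p = 0.095 and 0.0894) and Lce1g of 2.70 and 2.68 (0.128 and 0.134), with wide spread between replicates. Plakophilin 1 (Pkp1), a desmosomal plaque protein, fell by 1.88 and by 2.26 on the log2 scale (0.00239 and 0.00138), and stayed past the threshold without any 1 array. Corneodesmosin (Cdsn) had a change of -1.09 at 24 h (0.0583).

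Several genes on the list of cross-linking and processing enzymes, which also holds protease inhibitors, were higher at 24 h. Of 15 tested of 20, 7 were called higher at 24 h and 4 at 48 h with 0 lower. The share was 46.7% and 26.7%, against 5.86% and 4.66% of all genes called higher. The median log2 difference was 1.09 and 0.38. Transglutaminase 1 (Tgm1), which cross-links small proline-rich proteins, had a log2 fold change of 1.62 at 24 h (limma adjusted p = 0.0222) and 0.17 at 48 h (0.74), and transglutaminase 5 (Tgm5) was at least 2.09-fold higher at 24 h (0.0102) and not well above background at 48 h. Both were named after their values were seen. Between the times 3 of the 15 were called lower before adjustment and 0 higher, a share of 20% against 1.4% of all genes called lower. They were Tgm1, Tgm5 and the protease inhibitor Serpinb5 (adjusted p = 0.151, 0.104 and 0.207), so 0 passed after adjustment. The protease inhibitor Serpinb5 was at least 20.7-fold higher at 24 h (0.00683) and at least 3.15-fold at 48 h (0.0268), and Serpinb2 was 20.3-fold and 11.9-fold higher (0.00959 and 0.0164). The lipoxygenase Aloxe3 was 6.39-fold and 5.91-fold higher (0.0406 and 0.0452) and the protease Klk8 4.74-fold and 4.51-fold (0.00309 and 0.0029). Aloxe3 was well above background on 1 Control array, and its fold was 3.38 and 3.12 at the 2 times without Control replicate 1 and 12.1 and 11.2 without Control replicate 2. Serpinb2 was 32.9-fold higher at 24 h without 24H CSF1 replicate 1 and 12.6-fold without replicate 2, and the fitted log2 value of Serpinb5 at 48 h, 3.71, was 4.80 without 48H CSF1 replicate 1 and 2.62 without replicate 2. Klk8 kept its calls without any 1 array. With the 6 arrays left out in turn, the calls of Serpinb5 were kept 4 times at 24 h and 2 times at 48 h, those of Serpinb2 3 and 2 times, those of Aloxe3 2 and 2 times, and the 24 h calls of Tgm1 and Tgm5 2 and 3 times. The adjusted p reached 0.102 for Tgm1 without Control replicate 1, 0.0734 for Tgm5 without Control replicate 2, 0.129 for Serpinb5 and 0.0997 for Serpinb2 at 48 h without Control replicate 2, and 0.171 for Aloxe3 at 48 h without 48H CSF1 replicate 1.

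Of the keratins of stratified epithelium, 12 of 17 were tested. By limma 0 were called at 24 h, where 3 had an unadjusted p under 0.05 at any fold. At 48 h 1, Krt13, was called higher, 8.33% of those tested against 6.48% of all genes in either direction, with 0 after adjustment. Krt13, a keratin of internal squamous epithelia, had a log2 level of -0.68 and -0.43 in Control, -0.74 and -1.63 at 24 h, and 0.72 and 0.21 at 48 h. Its fold change at 48 h of 1.01 on the log2 scale did not pass after adjustment (adjusted p = 0.113). Between 24 h and 48 h 3 keratins were called, 25% of those tested against 2.27% of all genes: Krt13 was higher by 1.65 (adjusted p = 0.166), and Krt4 and Krt78, named after their values were seen and not well above background at 48 h, were at least 2.10-fold and at least 1.65-fold lower (0.141 and 0.116), with 0 of the 3 past the threshold after adjustment.

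Among 27 tested of 35 transcription factors known from epithelial differentiation or from Sprr promoters, 5 were called higher and 2 lower at 24 h, and 4 and 2 at 48 h. The share called was 25.9% and 22.2%, against 7.68% and 6.48% of all genes. The AP-1 members Fos and Junb rose, Fos by 2.94 and 2.10 on the log2 scale (limma adjusted p = 0.00835 and 0.0197) and Junb by 2.32 and 1.67 (0.00406 and 0.00862). Cebpd, of the C/EBP family, rose by 2.70 and 2.17 (0.013 and 0.0237), and Gata3 fell by 1.27 and by 1.37 (0.0228 and 0.0196). Between 24 h and 48 h, 0 of the 27 were called in either direction by limma, and 6 had an unadjusted p under 0.05 at any fold. With the 6 arrays left out in turn, the calls at 24 h and 48 h were kept 4 and 1 times for Fos, 5 and 4 times for Junb, 2 and 2 times for Cebpd and 2 and 1 times for Gata3. The adjusted p reached 0.114 for Fos and 0.0716 for Junb at 48 h without Control replicate 2, 0.119 for Cebpd at 48 h without Control replicate 1 and 0.107 for Gata3 at 48 h without 48H CSF1 replicate 1.

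Genes known alongside Sprr1a in injury and regeneration were called higher for 7 of 14 tested of 18 at 24 h and 6 at 48 h, with 0 lower. The share was 50% and 42.9%, against 5.86% and 4.66% of all genes called higher. Il6, a cytokine, was 47.1-fold and 85.1-fold higher (limma adjusted p = 0.00618 and 0.00407), and 1 of its Control arrays was well above background. Its fold was 28.8 and 51.9 without Control replicate 1 and 77.2 and 139.4 without Control replicate 2. Socs3, a feedback inhibitor of cytokine signaling, was 13.3-fold and 7.50-fold higher (0.0029 and 0.00459), Gap43, a growth cone protein, 3.69-fold and 5.78-fold (0.00415 and 0.00172), and Atf3, a stress-induced factor, 3.13-fold and 3.58-fold (0.022 and 0.0174). Socs3 and Gap43 kept both calls without any 1 array. Without 24H CSF1 replicate 2 the 24 h call of Il6 was lost (adjusted p = 0.064), and for Atf3, whose calls were kept 2 and 3 times, the adjusted p reached 0.121 at 24 h without Control replicate 2 and 0.101 at 48 h without Control replicate 1.

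**Figure D4:**
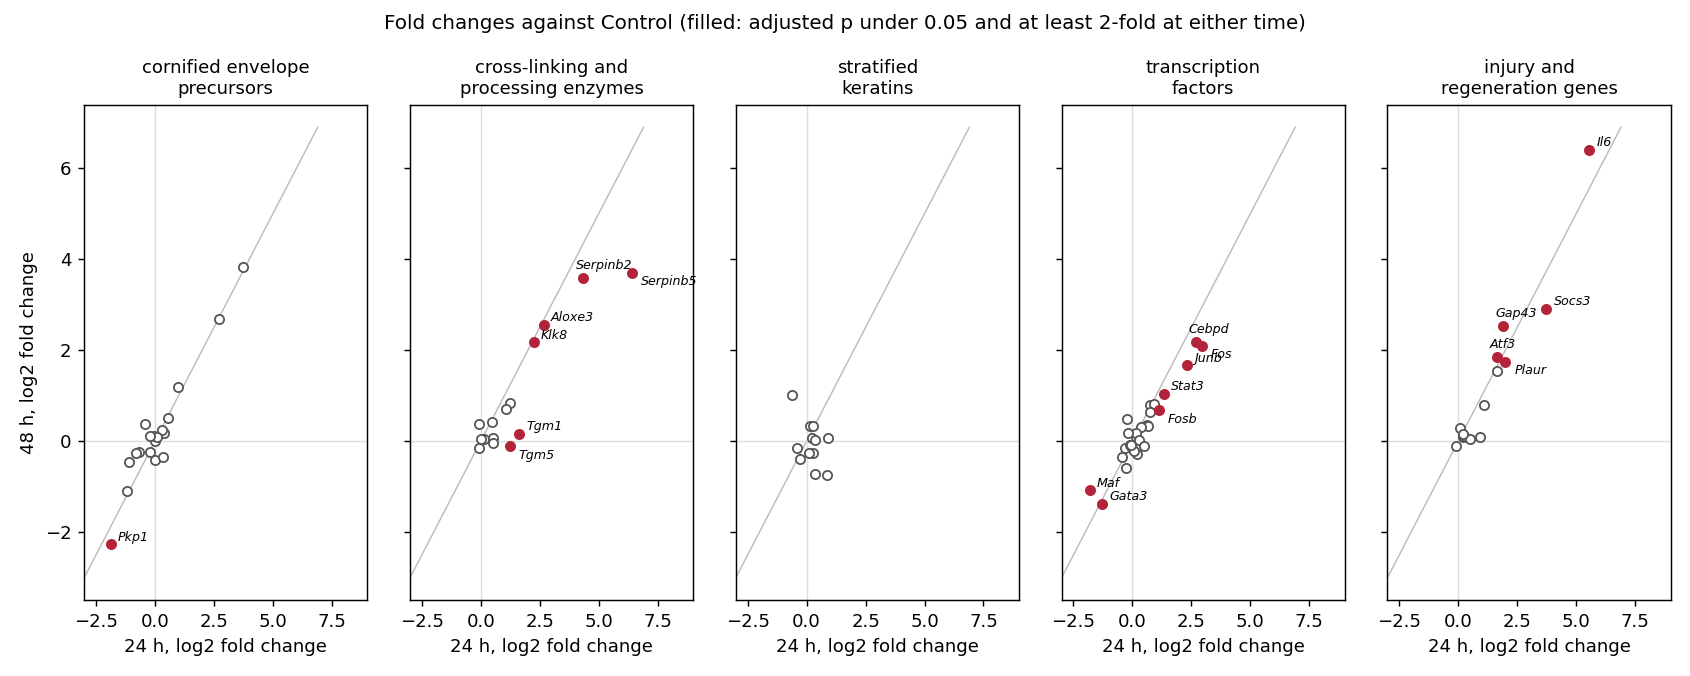
Fitted log2 fold change against Control at 24 h (x axis) and 48 h (y axis) for the tested genes of the 5 lists, 1 panel a list, with genes at adjusted p under 0.05 and at least 2-fold at either time filled and named. Enzymes such as Tgm1 and Tgm5 lie below the diagonal of equal change, and 0 keratins are filled.

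The genes whose 6 array values followed the mean profile of the 6 tested Sprr genes most closely, among 214 others with a RefSeq symbol that were at least 2-fold higher at 48 h than at 24 h by fitted values, at any p, and well above background on both 48 h arrays, were C4b, Ifi27l2a, H2-T23, H2-Q2, H2-K1 and Tcn2. Pearson's r over the 6 arrays ran from 0.989 to 0.994, a description, since these arrays share the 3 groups. C4b is a complement component, Ifi27l2a an interferon-inducible gene, H2-T23, H2-Q2 and H2-K1 are MHC class I genes, and Tcn2 carries vitamin B12. Ifi27l2a, for example, had log2 levels of -2.51 and -2.14 in Control, -1.30 and -1.02 at 24 h, and 0.52 and 0.36 at 48 h. H2-K1 had -1.56 and -1.49, -0.10 and 0.35, and 1.74 and 2.02 on the same arrays. The 48 h means of these genes were 6.80-fold and 10.6-fold above Control. Since the genes were picked for a rise after 24 h and for likeness to the Sprr profile, nothing further is read from their pattern.

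Markers were read for what the cells were. Of 5 luminal epithelial markers, Krt8 was well above background on all 6 arrays, Krt19 on 5, Krt18 on 3, Epcam on 1 and Cdh1 on none, and the 3 basal markers Krt5, Krt14 and Trp63 were on all 6. Krt8, a simple epithelial keratin, rose at 48 h by 1.98 on the log2 scale (limma adjusted p = 0.0106). Whether it passed depended on which arrays were kept. The other luminal markers did not share this late rise. Krt18 was at least 1.86-fold higher at 24 h and at least 1.44-fold at 48 h (adjusted p = 0.0522 and 0.118). Krt19 had changes of -0.63 and 0.25 on the log2 scale (0.515 and 0.812), and Epcam and Cdh1 were too dim to test. The summed level of the luminal markers, in units of the 75th percentile, was 0.251 to 0.356 in Control, 0.43 to 0.496 at 24 h and 0.709 to 0.877 at 48 h, and that of the basal markers 13.9 to 14.3, 10.5 to 12.2 and 11.7 to 13.8. Each sum mostly follows its brightest probe. Krt8 made up 48.4% to 76.7% of the luminal sum and Trp63 97.3% to 98.5% of the basal sum. Itgam made up 85.8% to 95% of the leukocyte sum and Vim 70.5% to 83.9% of the stromal sum. Since levels do not compare 1 gene with another, these shares show which probe sets a sum and not how much RNA each gene had. The sums likewise compare arrays and not 1 list with another. Of 6 leukocyte markers 4 were on all 6 arrays and Lyz2 on none, with sums of 39.8 to 44.5, 30 to 37.5 and 24.6 to 34.0. Itgam had changes of -0.43 and -0.65 (adjusted p = 0.264 and 0.12) and Cd14 of 0.86 and 0.69 (0.0101 and 0.0191), the opposite way. Of the stromal markers 4 of 4 were on all 6 arrays, with sums of 449 to 465, 354 to 366 and 316 to 341. Vim had changes of -0.16 and -0.27 (adjusted p = 0.423 and 0.198), Col1a1 fell by 0.88 and by 1.19 (0.0178 and 0.00859), Col3a1 fell by 1.35 and by 0.82 (0.00983 and 0.0344), and Pdgfra had changes of 1.33 and 0.63 (0.0178 and 0.109), the opposite way. With 1 array left out the adjusted p at 24 h reached 0.0754 for Cd14 and 0.106 for Pdgfra without 24H CSF1 replicate 2, and 0.106 for Col1a1 and 0.0705 for Col3a1 without Control replicate 2. At 48 h it reached 0.128 for Cd14 and 0.174 for Col3a1 without 48H CSF1 replicate 1, and 0.0684 for Col1a1 without Control replicate 2. The part of these shifts in the Sprr values was not tested. Csf1r, the transduced receptor, was well above background on all 6 arrays, with changes of 0.22 and -0.07 (adjusted p = 0.367 and 0.793).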

How the data were processed

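Expression in N18-Fms cells was measured on 6 single-color Agilent 60-mer arrays. The authors scanned them with Feature Extraction 11.0.1 and deposited, per spot, a background-subtracted processed signal intensity, not normalized between arrays, with mean and local background intensity and flags. A second table that the authors deposited holds log2 values. Over 44569 matched probes, 99.8% of its differences between arrays lay within 0.05 of those of the log2 signal, its column medians ran from -0.0378 to 0.173, and its normalization and baseline are not given in the sources used here. Probe coordinates are those of mm9 in the files. The times are those of the labels, and the study's methods text gives shorter ones.

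Spots flagged as outliers were left out, and log2 of the signal minus the log2 of the 75th percentile over non-control spots was taken. The brightest probe stood for each gene. A gene was kept where the 2 arrays of any group both passed the background flag, and the 24648 kept were tested with limma 3.58.1 in R 4.3.3 (lmFit and eBayes, 2-sided, 3 residual and 2.39 prior degrees of freedom), all 6 arrays in 1 fit. Calls needed p under 0.05 and 2-fold. Adjustment was Benjamini-Hochberg over all genes tested. Promoter windows and motifs were read in Python 3.11.15 with Biopython 1.88. The fit was tested on simulated data. The members and lists were chosen with earlier results of these data known. With 2 arrays a group, an exact test of 1 value cannot go below p = 0.333, and the number of arrays limits the precision. Named genes were the members, other Sprr genes, up to 4 called genes of each list with the largest change at 48 h, the nearest neighbours, the 6 most similar genes and the markers; other names were chosen after their values were seen. Some markers are not reported here. Replicate arrays correlated at r of 0.9926 to 0.9936 across genes, and 0 values were identical. Alternatives were quantile normalization, median centring, normexp with an offset of 50, the authors' log2 values, no filter, all 6 arrays above background, the mean of probes, slide and replicate blocks, the methods' t-test and leaving out each array.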

Additional observations from a re-analysis of the deposited data

Results flagged for a closer look

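Krt13 stood out because both 24 h arrays lay below both Control arrays and both 48 h arrays above them, a difference between the times of 1.65 on the log2 scale (limma adjusted p = 0.166, so it did not pass the test of the difference itself). Krt5 moved the opposite way, with both 24 h arrays above and both 48 h arrays below Control and a difference of -0.52 (adjusted p = 0.228). Cd68 did the same with a difference of -1.09 (adjusted p = 0.124), and it was well above background on 4 of 6 arrays.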

How the results depend on the processing

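With 2 arrays a group the calls are fragile. The numbers of genes called, 1894 at 24 h, 1598 at 48 h and 560 between the times, became 874, 888 and 162 with normexp, 3271 and 1351 (24 h and between the times) without a filter, 1101 and 187 with all 6 arrays above background, and 251 between the times by the methods' t-test. The Sprr genes called, 2, 5 and 3, became 1 at 24 h with normexp, with all 6 arrays above background and by the methods' t-test, and 3 at 48 h with all 6 arrays above background; fewer genes were tested in the second case. The genes called in the 3 cornification lists, 11, 8 and 6, became 7, 5 and 2 with normexp, 5 and 1 (24 h and between the times) with all 6 arrays above background, and 6, 3 and 3 by the methods' t-test. By the methods' t-test 0 Sprr genes were called after adjustment. The counts of calls given here take both directions together. Under some alternatives the Sprr counts include Sprr3 or Sprr2g called lower, so they are not all counts of risers. Leaving out 1 array gave 1850 to 3334, 1617 to 2111 and 602 to 1531 genes, 2 to 3, 4 to 6 and 3 to 4 Sprr genes, and 11 to 15, 7 to 10 and 6 to 11 list genes. Of 49 calls of named genes against Control at adjusted p under 0.05, 14 were kept without any 1 array. The causes were not tested.

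Median centring moved the median of all genes to -0.25 at 24 h and -0.14 at 48 h, from 0.04 and -0.04. Deviations of arrays with equal replicate numbers correlated weakly (0.128, 0.094 and 0.199). Whether equal numbers mark the same experiment is not given, so these values cannot settle pairing. With a replicate block 2, 5 and 4 Sprr genes were called. No called value changed sign under the alternatives run, while the Sprr3 difference between the times, -0.12, ran from -0.93 to 0.69. Dim signal left Sprr1b, Sprr2b, Sprr2f and Sprr2i untested and gave only bounds in some comparisons of Sprr2d, Sprr2g and Sprr3.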
